A study of Mus musculus with 16 samples.

Results

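The early growth response genes Egr1, Egr2 and Egr3 and their corepressors Nab1 and Nab2 were followed in mouse mast cells given an agonist antibody against TIM-3. These 5 genes, of 17082 tested in all, were found by their gene names on the array. They were chosen with earlier results of these data known. They are read by 7 probes on 16 spots of each array: 1 probe each for Egr1, Egr2 (printed at 10 spots) and Nab2, and 2 probes each for Egr3 and Nab1. Of 2 probes the brighter stands for the gene.

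Egr proteins are zinc finger transcription factors that bind GC-rich DNA, and their genes are classic immediate early genes, switched on within minutes of receptor signalling without new protein synthesis. In mast cells, crosslinking of the high-affinity IgE receptor by antigen starts the ERK and calcium signals that reach these genes. NAB1 and NAB2 have no DNA-binding domain of their own. They bind an inhibitory region of EGR1, EGR2 and EGR3 and recruit repressive chromatin complexes, and the NAB2 gene is itself known as a target of the factors it holds back.

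The cells were grown from bone marrow with 5 ng/ml IL-3, 40 ng/ml SCF and 10% serum for more than 4 weeks, to a stated purity over 90% of FcERIa+/c-kit+ cells, and the submitters call them immature mast cells. Resting cells received 15 ug/ml of goat polyclonal agonist anti-TIM-3, or of control goat IgG, for 2 h or 16 h. Activated cells were first given 5 ug/ml anti-DNP IgE for 1 h and then 100 ng/ml DNP-HSA antigen together with one of the antibodies for the same times. So there were 4 groups of 4 arrays, and each array carried RNA of anti-TIM-3-treated cells in Cy5 against RNA of IgG-treated cells in Cy3. Strain and sex are not given in the sources used here, nor is it stated whether replicates were separate cultures, so the spread between arrays may in part be technical. Same-numbered replicates of different groups were alike in Cy3 and in Cy5 signal, as given at the end. The main fit has no term for the replicate number. No dye was swapped, so within a group a dye effect and an antibody effect cannot be told apart, while a dye effect shared by 2 groups cancels in their difference. An anti-TIM-3 ratio is log2 of Cy5 over Cy3, and a level is the log2 signal of one channel. A gene rose or fell where limma's adjusted p, over all genes tested, was under 0.05. Errors are SDs over arrays, except SEs, which come from that fit.

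All 9 mast cell markers were well above background on all 16 arrays. So were 7 of 8 markers of macrophages and dendritic cells, and their summed Cy3 signal was lowest in replicate 2 of every group. Of the neutrophil genes, Elane, Camp and Ngp were well above background on 0 arrays. Mpo and S100a9 were so on all 16, S100a8 on 5 and Ltf on 2. No spot was saturated, and 53.7% to 62.1% of probes were well above background in Cy3. On 3 resting arrays (2 h replicate 3, 16 h replicates 1 and 3) the ratios stood apart: over all genes they correlated with one another at 0.49 to 0.78 and with the other arrays of their groups at -0.21 to 0.54. Resting results are therefore also given without these 3 arrays where they differ, as an alternative chosen after seeing the data. The Egr1 spot of activated replicate 2 at 16 h was flagged as an outlier by the scanner software and left out, which leaves n = 3 there.

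Promoter sequence was at hand for 3 of the 5 genes: 5 windows for Egr2, 1 for Nab1 and 1 for Nab2, from RefSeq on GRCm38.p6. None is printed for Egr1 and Egr3. The windows are shown because these 3 genes rose together with antigen at 2 h to very unequal extents. Each line holds the 250 bases before a listed gene start, 5′ to 3′ along the gene. Capitals mark matches, on either strand, to the CArG box of serum response factor, TGACG (part of the cyclic AMP response element), GGAAAA (an NFAT core), CCGGAA (an ETS core), and the Egr elements GCGTGGGCG and GCGGGGGCG. The 2 Egr2 windows, chr10:67537316-67537565 and chr10:67537619-67537868, are on the plus strand and were picked for the most matches among windows that do not overlap. The Nab1 window, chr1:52500449-52500698, and the Nab2 window, chr10:127666704-127666953, are on the minus strand.
Egr2, upstream start: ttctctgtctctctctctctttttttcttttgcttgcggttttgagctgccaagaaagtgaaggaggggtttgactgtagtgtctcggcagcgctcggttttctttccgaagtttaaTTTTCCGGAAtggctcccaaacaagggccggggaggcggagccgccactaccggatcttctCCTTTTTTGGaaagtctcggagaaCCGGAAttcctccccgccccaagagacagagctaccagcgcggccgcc
Egr2, downstream start: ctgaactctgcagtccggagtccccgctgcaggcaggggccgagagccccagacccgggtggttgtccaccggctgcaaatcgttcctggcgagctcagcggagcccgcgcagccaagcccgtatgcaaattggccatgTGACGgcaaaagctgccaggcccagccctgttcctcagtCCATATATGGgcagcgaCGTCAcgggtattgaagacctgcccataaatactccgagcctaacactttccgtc
Nab1: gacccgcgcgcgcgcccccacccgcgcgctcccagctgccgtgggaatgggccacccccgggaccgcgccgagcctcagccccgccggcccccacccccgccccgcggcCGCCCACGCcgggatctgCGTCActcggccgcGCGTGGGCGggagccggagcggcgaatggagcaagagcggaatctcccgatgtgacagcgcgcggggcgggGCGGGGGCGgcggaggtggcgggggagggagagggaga
Nab2: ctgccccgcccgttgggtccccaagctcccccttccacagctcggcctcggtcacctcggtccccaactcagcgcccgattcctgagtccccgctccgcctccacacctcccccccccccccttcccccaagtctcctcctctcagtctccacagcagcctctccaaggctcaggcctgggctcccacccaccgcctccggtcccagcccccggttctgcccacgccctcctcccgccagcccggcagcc

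A CArG box lay in 4 of the 5 Egr2 windows, but 3 of these overlap and share 1 box, so that there are 2 distinct boxes. Of all 32851 windows of this length 1.47% hold one. In each printed Egr2 window it starts 72 bases before the gene start. In the upstream window the run TTTTCCGGAA holds a match to GGAAAA and 2 to CCGGAA, which overlap one another. The downstream window has 2 TGACG matches beside its CArG box, against 17.8% of windows with at least 1. The Egr2 window without a CArG box, which is not printed, holds none of the other motifs either. The Nab1 window holds 2 matches to GCGTGGGCG, found in 0.536% of windows, 1 to GCGGGGGCG (2.57%) and 1 to TGACG. The Nab2 window holds none of the 6 motifs, which says only that these letters are not in it. GGAAAA and CCGGAA occurred in 20.4% and 12.03% of windows. A match of letters is no measured binding.

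At 2 h, antigen alone changed all 5 genes, but not in 1 direction. In IgG-treated cells Egr2, Egr3, Nab1 and Nab2 were higher with antigen and Egr1 was lower. Of all genes tested, 15.3% were called higher and 27.6% lower in this comparison, so a count of 5 is read against a broad response.

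Egr3, whose product acts with EGR2 in restraining lymphocyte activation, moved most. Its Cy3 level was 7.46, 7.50, 7.30 and 7.75 in resting cells and 10.27, 10.27, 10.29 and 10.04 in activated cells. The groups did not overlap, and antigen raised Egr3 by 2.72 ± 0.12 (SE), 6.57-fold, with an adjusted p of 4.91e-11. Egr2, the factor known from myelination and from T cell anergy, was at 10.84, 10.41, 10.83 and 11.10 at rest and at 13.42, 13.12, 13.25 and 13.43 with antigen. It rose 5.71-fold, by 2.51 ± 0.20 (SE, adjusted p = 4.52e-08), again without overlap.

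Nab2, the inducible corepressor, followed them. Its Cy3 level went from 10.34 ± 0.18 (n = 4) to 12.22 ± 0.10 (n = 4), a rise of 1.88 ± 0.08 (SE) or 3.67-fold (adjusted p = 3.43e-11). Nab1, the corepressor better known for steady expression, rose 1.33-fold, by 0.41 ± 0.08 (SE, adjusted p = 0.000341), from 12.91 ± 0.20 to 13.32 ± 0.10. All 4 activated Nab1 values, 13.22 to 13.45, lay above the highest resting value of 13.18.

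Egr1, the founding member of the family, went the other way. Its Cy3 level was 12.79, 12.97, 12.17 and 12.50 in resting cells and 11.78, 11.69, 11.12 and 11.43 in activated cells. Every activated array was below every resting one, and Egr1 was 2.15-fold lower with antigen, a difference of -1.10 ± 0.15 (SE, adjusted p = 2.6e-05). With 2 h as the earliest time, an earlier peak was not measured. Within slide 2 the antigen difference in Cy3 was -1.06 for Egr1, 2.43 for Egr2, 2.81 for Egr3 and 1.92 for Nab2, and within slide 3 it was -0.90, 2.51, 2.87 and 1.98. Each slide held 2 activated and 1 resting array, that of slide 3 being one that stands apart, so these are values without a test. In these cultures fewer cells of a type and less RNA per cell cannot be told apart.

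Markers were compared in the same way. None of the 8 macrophage and dendritic cell markers passed the test in Cy3 at 2 h, while 1 of 9 mast cell markers rose and 3 fell. Of the eosinophil markers, Siglecf rose by 2.68, whereas Prg2 differed by 0.02 and did not pass the test, and Epx was well above background on 1 of 16 arrays. The part of these markers in the Egr and Nab results was not tested.

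**Figure D1:**
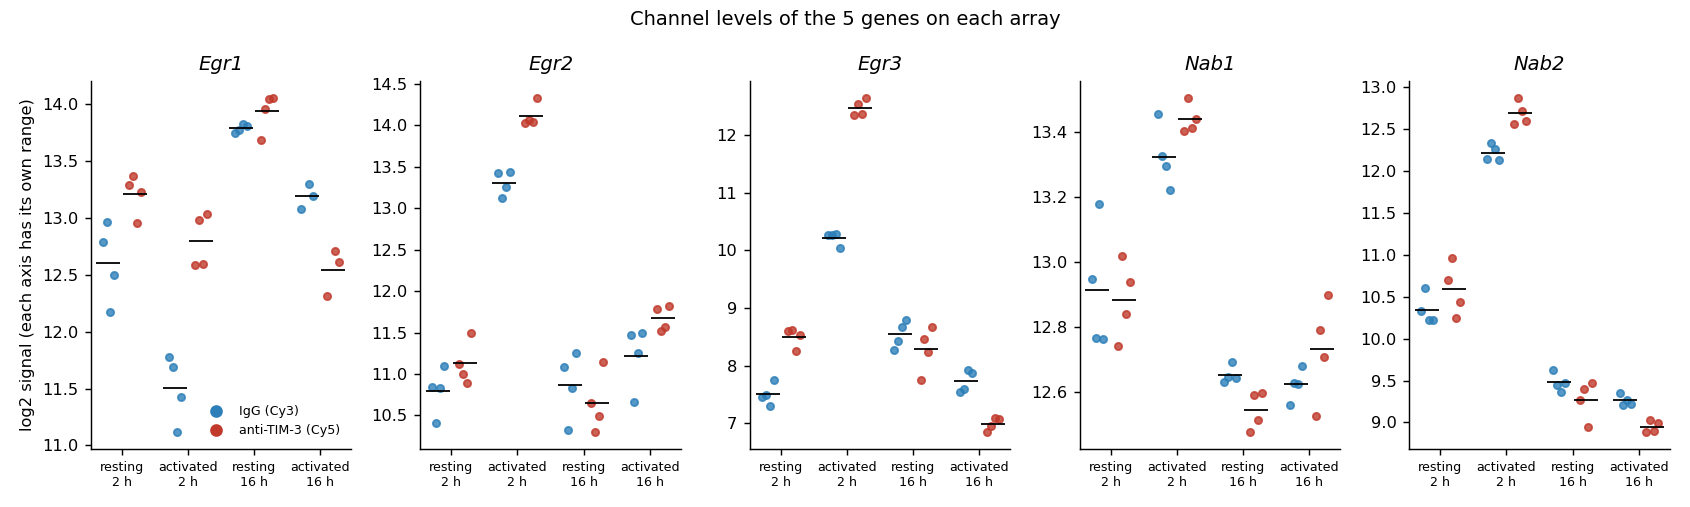
Log2 signal of each gene on each array, with IgG-treated cells (Cy3) in blue, anti-TIM-3-treated cells (Cy5) in red and black bars at the group means, over 4 groups of 4 arrays (3 for Egr1 in activated cells at 16 h). Each panel has its own vertical range, and Egr3 in Cy3 goes from a mean of 7.50 at rest to 10.22 with antigen at 2 h, whereas Egr1 goes from 12.61 to 11.50.

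In activated cells at 2 h Egr1, Egr2, Egr3 and Nab2 were higher with anti-TIM-3 than with IgG and Nab1 did not pass the test, where 17.1% of genes were called higher. For Egr3 the anti-TIM-3 ratio was 2.07, 2.27, 2.08 and 2.60 on the 4 arrays. All 4 arrays were far above 0, and the mean of 2.25 ± 0.25 (n = 4) is a 4.77-fold higher signal (adjusted p = 7.34e-12).

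Egr1 had ratios of 0.81, 1.29, 1.48 and 1.61, a mean of 1.30 ± 0.35 (n = 4) or 2.46-fold (adjusted p = 5.69e-08). So the gene that was lower with antigen was also raised by the antibody in the presence of antigen. Its Cy5 level of 12.80 ± 0.24 (n = 4) was above its IgG level in activated cells (11.50), without overlap, and overlapped that in resting cells (12.61 ± 0.35). In anti-TIM-3-treated cells the antigen difference for Egr1 was -0.41 ± 0.13 (SE, adjusted p = 0.0163). That call was lost without resting replicate 2 (adjusted p = 0.0507), without activated replicate 1 (0.057) or without activated replicate 3 (0.0564).

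Egr2 had ratios of 0.60, 0.95, 0.79 and 0.90 in activated cells at 2 h. They average 0.81 ± 0.16 (n = 4), 1.75-fold, with an adjusted p of 5.55e-06. The 10 Egr2 spots of an array agreed closely, with SDs of their ratios between 0.0114 and 0.0369. Nab2 had ratios of 0.42, 0.54, 0.45 and 0.47, which vary little around 0.47 ± 0.05 (n = 4), 1.38-fold (adjusted p = 6.43e-05). Nab1 had a mean of 0.12 ± 0.12 (n = 4, SE of the fit 0.08, adjusted p = 0.259), with 1 array below 0. With median centring alone it was 0.71 and passed (adjusted p = 7.32e-07), against a median gene at 0.22, and Egr2 and Nab2 were then 1.43 and 0.97.

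The combination of antigen and anti-TIM-3 thus gave the highest mean signal of any group for Egr2, Egr3 and Nab2, in Cy5 at 2 h. For Nab1 the Cy5 values there, 13.40 to 13.51, overlapped the Cy3 values of 13.22 to 13.45. Its dimmer probe averaged 11.12 in Cy5 and 11.13 in Cy3. For Egr3 the antigen difference in Cy5 at 2 h was 3.97 ± 0.15 (SE), 15.7-fold (adjusted p = 4.92e-12). It was 2.99 ± 0.16 (SE), 7.92-fold, for Egr2, 2.10 ± 0.13 (SE), 4.29-fold, for Nab2, and 0.56 ± 0.07 (SE), 1.47-fold, for Nab1. In this channel 17.1% of genes were called higher and 28.2% lower.

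Some markers also moved with anti-TIM-3 at 2 h. In activated cells Siglecf, listed for eosinophils, rose by 0.75 and Mcpt8, listed for basophils, by 0.40 (adjusted p = 8.67e-10 and 1.49e-06), while Prg2, Cd200r3 and Prss34 did not pass the test. The summed Cy5 signal of the eosinophil markers was 1.54 to 1.66 of their Cy3 signal there. Only Siglecf and Prg2 were kept for that sum, and Prg2 was dim, with a mean Cy3 level of 6.63 over all arrays. Of the 9 mast cell markers 2 rose and 0 fell, and of the 8 macrophage and dendritic cell markers 0 rose and 1 fell. In resting cells Siglecf rose by 0.24 and Mcpt8 by 0.33 (adjusted p = 0.00114 and 5.88e-05), 3 mast cell markers rose, and 0 macrophage markers passed. The part of these markers in the Egr and Nab ratios was not tested.

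**Figure D2:**
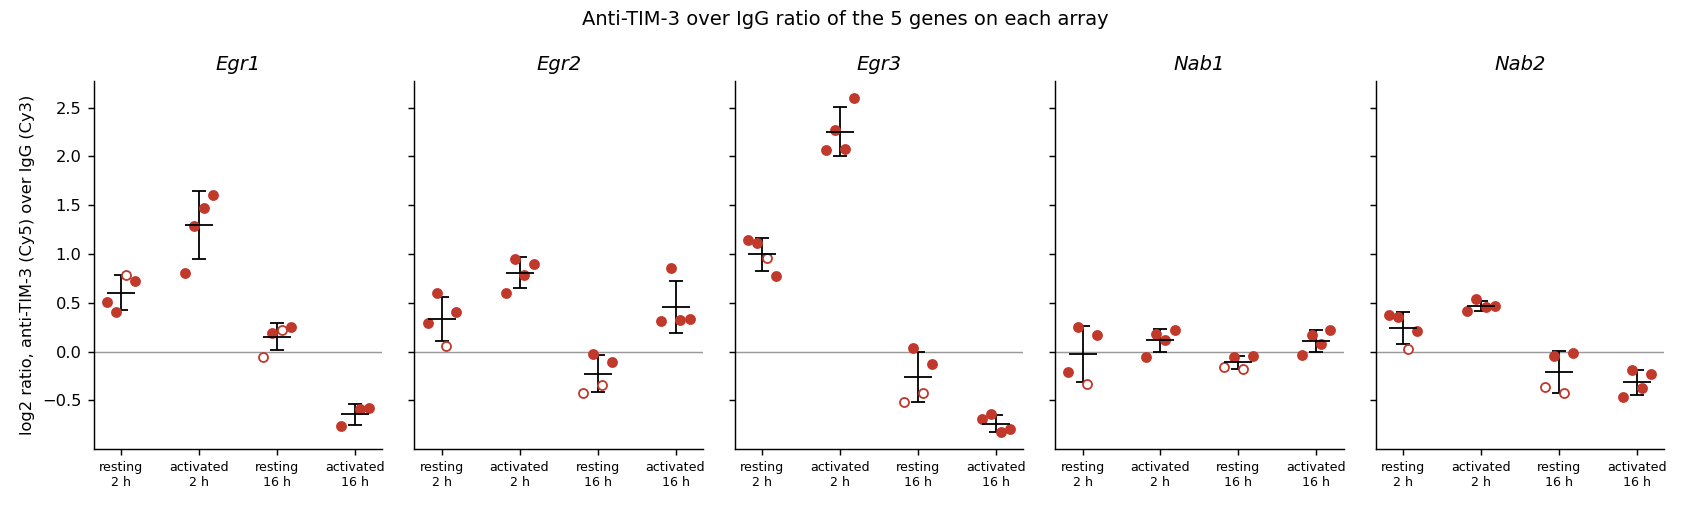
Anti-TIM-3 over IgG ratio (log2) of each gene on each array in the 4 groups, with black bars at the mean and SD and open circles for the 3 resting arrays that stand apart. The Egr3 ratios of activated cells lie between 2.07 and 2.60 at 2 h and between -0.82 and -0.64 at 16 h, and the Nab1 array with the highest ratio is at 0.251.

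In resting cells at 2 h Egr1, Egr2, Egr3 and Nab2 rose with anti-TIM-3 and Nab1 did not pass the test, where 7.07% of genes were called higher. The Egr3 ratio was 1.14, 1.12, 0.96 and 0.77, a mean of 1.00 ± 0.17 (n = 4, adjusted p = 1.33e-06). For Egr1 it was 0.51, 0.41, 0.78 and 0.73, a mean of 0.61 ± 0.18 (n = 4, adjusted p = 0.00063). Every array was above 0 for both genes. Nab1 averaged -0.03 ± 0.29 (n = 4, adjusted p = 0.851), but 0.45 with median centring alone, above a median gene at 0.21, which passed (adjusted p = 0.000135).

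The rises of Egr2 and Nab2 in resting cells were weaker and rested on few arrays. Egr2 had ratios of 0.29, 0.60, 0.06 and 0.40 (mean 0.34 ± 0.23, n = 4, adjusted p = 0.0243), and Nab2 had 0.38, 0.36, 0.03 and 0.21 (mean 0.24 ± 0.16, n = 4, adjusted p = 0.0259). Replicate 3, which stands apart, was the lowest for both. Without the 3 such arrays the means were 0.43 for Egr2 (adjusted p = 0.00677) and 0.31 for Nab2 (adjusted p = 0.00114). Leaving out resting replicate 1, 2 or 4 alone ended both calls, with adjusted p of 0.0697, 0.129 and 0.0799 for Egr2 and 0.154, 0.106 and 0.0544 for Nab2.

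The antibody effect at 2 h was larger with antigen than without it for 3 genes, by a test of the difference that called 3.59% of genes as higher. The difference was 1.26 ± 0.13 (SE, adjusted p = 4.82e-06) for Egr3, 0.69 ± 0.14 (SE, adjusted p = 0.00551) for Egr1 and 0.47 ± 0.13 (SE, adjusted p = 0.046) for Egr2. All 4 activated arrays exceeded all 4 resting arrays in each of the 3 genes, although in Egr2 the lowest activated and highest resting values were both 0.60 after rounding. The Egr2 call was lost without the 3 arrays that stand apart (0.38, adjusted p = 0.093), with slide as a block (0.53, adjusted p = 0.0608), from Agilent's processed signals (0.43, adjusted p = 0.115), with a normexp offset of 10 (0.0665), with no filter on dim probes (0.0581) and with only these groups fitted (0.0546). It was also lost on leaving out resting replicate 1, 3 or 4 (adjusted p = 0.113, 0.13 and 0.0668) or activated replicate 2, 3 or 4 (0.144, 0.0806 and 0.134). For Nab2 the difference was 0.22 ± 0.10 (SE) and for Nab1 0.15 ± 0.11 (SE), and neither passed the test (adjusted p = 0.227 and 0.536), although Nab2 did with median centring alone (0.40, adjusted p = 0.00945). Within slide 2 the difference was 1.03 for Egr3, 0.55 for Egr1 and 0.49 for Egr2, and within slide 3 it was 1.38, 0.76 and 0.79.

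At 16 h in activated cells Egr3 was lower with anti-TIM-3 than with IgG, and so were Egr1 and Nab2. With median centring alone in place of loess, however, the Egr1 and Nab2 means did not pass and were above 0 and below the median gene. Egr2 was still higher and Nab1 did not pass the test. Of all genes, 16.9% were called higher and 13.2% lower here. The Egr3 ratios were -0.69, -0.64, -0.82 and -0.80, a mean of -0.74 ± 0.09 (n = 4), 1.67-fold lower (adjusted p = 1.04e-05). All 4 arrays were below 0. The mean was -1.24 from Agilent's own processed signals and -0.44 over both Egr3 probes, and both passed the test.

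The 3 usable Egr1 ratios were -0.77, -0.59 and -0.58, a mean of -0.65 ± 0.11 (n = 3), 1.56-fold lower with an adjusted p of 0.000386. With median centring alone the mean was 0.07 and did not pass the test (adjusted p = 0.579). The median gene was then at 0.39, and Egr1 so at -0.32 relative to that gene. The Nab2 ratios were -0.47, -0.19, -0.38 and -0.23, a mean of -0.31 ± 0.13 (n = 4, adjusted p = 0.00216). Median centring alone gave Nab2 0.11, which did not pass (adjusted p = 0.12), and -0.28 relative to the median gene.

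Egr2 stayed above 0 on all 4 arrays, at 0.32, 0.85, 0.32 and 0.33. The mean was 0.45 ± 0.27 (n = 4), 1.37-fold (adjusted p = 0.00139), and replicate 2 stood well above the rest. Without that replicate the mean was 0.32, with the adjusted p over leave-one-out fits between 0.00351 and 0.0146. The Egr2 level in Cy3 was lowest in replicate 2 in each of the 4 groups, at 10.41, 13.12, 10.32 and 10.67, as was the summed macrophage signal. Nab1 had a mean of 0.11 ± 0.11 (n = 4, adjusted p = 0.309), and over both probes it was 0.17 and passed the test (adjusted p = 0.00184). With median centring alone Nab1 was at 0.79, above the median gene, and passed (adjusted p = 1.01e-07).

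Markers of macrophages and dendritic cells moved with the antibody in this group. Of the 8 markers, 7 fell and 1, Itgax, rose with anti-TIM-3, and their summed Cy5 signal was 0.604 to 0.752 of the Cy3 signal on the 4 arrays. The same ratio was 1.05 to 1.11 in activated cells at 2 h and 1.02 to 1.26 in resting cells at 16 h. Summed Cy3 signals ran from 21181 to 62456 and summed Cy5 signals from 15929 to 39337. Lyz2 weighs most in these sums, with a mean Cy3 level of 15.09 over all arrays, against 11.78 for Adgre1, the next highest. Of the 9 mast cell markers, 6 rose and 1 fell. The summed Cy5 signal of the mast cell markers was 1.27 to 1.503 of their Cy3 signal in this group, 1.13 to 1.28 in activated cells at 2 h, 1.25 to 1.61 in resting cells at 2 h and 1.43 to 1.99 in resting cells at 16 h. The part of these markers in the Egr1, Egr2, Egr3 and Nab2 values was not tested.

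The turn between 2 h and 16 h was itself tested. In activated cells the anti-TIM-3 ratio at 16 h minus that at 2 h was -2.99 ± 0.13 (SE) for Egr3 (adjusted p = 3.65e-11), -1.94 ± 0.15 (SE) for Egr1 (adjusted p = 1.56e-07) and -0.78 ± 0.10 (SE) for Nab2 (adjusted p = 2.25e-05), where 8.05% of genes were called lower. No 16 h array of these 3 genes reached the lowest 2 h array. For Egr2 the difference was -0.35 ± 0.13 (SE) and did not pass the test (adjusted p = 0.0789), but it did without activated replicate 2 at 16 h (adjusted p = 0.0104). For Nab1 it was -0.01 ± 0.11 (SE, adjusted p = 0.975). Within slide 3, which held 1 array of 16 h and 2 of 2 h, the difference was -3.16 for Egr3, -2.13 for Egr1, -0.84 for Nab2 and -0.52 for Egr2.

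In resting cells at 16 h the antibody effect was near 0, and the calls made there were fragile. Egr3 and Nab2 fell, except that with median centring alone their means were 0.03 and 0.16, below a median gene at 0.30, where 9.95% of genes were called lower. Egr3 had ratios of -0.51, 0.03, -0.43 and -0.13 (mean -0.26 ± 0.26, n = 4, adjusted p = 0.0486), and Nab2 had -0.36, -0.04, -0.42 and -0.01 (mean -0.21 ± 0.21, n = 4, adjusted p = 0.0391). The low values are those of replicates 1 and 3, the arrays that stand apart. Without them the means were -0.05 for Egr3 (adjusted p = 0.885) and -0.03 for Nab2 (adjusted p = 0.893). Leaving out replicate 1 or 3 alone also ended both calls (adjusted p = 0.289 and 0.236 for Egr3, 0.22 and 0.259 for Nab2), and leaving out replicate 4 brought Egr3 to 0.0501. Egr3 did not pass with slide as a block (-0.22, adjusted p = 0.137) or over both probes (-0.15, adjusted p = 0.0801), nor did Nab2 from Agilent's processed signals (adjusted p = 0.0605).

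The other 3 genes did not pass the test there. Egr2 had a mean of -0.23 ± 0.19 (n = 4, adjusted p = 0.0961), Egr1 0.15 ± 0.14 (n = 4, adjusted p = 0.289) and Nab1 -0.11 ± 0.07 (n = 4, adjusted p = 0.324). With median centring alone the Egr2 mean was 0.21, below the median gene, whereas Egr1 was 0.76 and Nab1 0.42, above it, and all 3 passed the test (adjusted p = 0.0402, 2.05e-06 and 0.000182). From 2 h to 16 h in resting cells the ratio of Egr3 fell by 1.26 ± 0.13 (SE, adjusted p = 0.000141), where 0.199% of genes were called lower. Without the 3 arrays that stand apart that fall was by 1.06 (adjusted p = 0.0174). The differences for Egr2, Nab2 and Egr1 were -0.56, -0.45 and -0.46 and did not pass the test (adjusted p = 0.0727, 0.0545 and 0.103). Egr2 and Nab2 did pass on leaving out resting replicate 3 at 2 h (adjusted p = 0.0189 and 0.0152), replicate 2 at 16 h (0.043 and 0.0376) or replicate 4 at 16 h (0.0436 and 0.0329).

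Activated and resting cells differed in the antibody effect at 16 h as well. The ratio of activated minus that of resting cells was -0.79 ± 0.15 (SE, adjusted p = 0.00289) for Egr1 and -0.48 ± 0.13 (SE, adjusted p = 0.0257) for Egr3, where 3.87% of genes were called lower. It was 0.68 ± 0.13 (SE, adjusted p = 0.00365) for Egr2, where 4.71% were called higher. Without the 3 arrays that stand apart the differences were -0.86 for Egr1 (adjusted p = 0.0129), -0.69 for Egr3 (adjusted p = 0.0088) and 0.52 for Egr2, which no longer passed (adjusted p = 0.0546). The Egr3 call was lost with slide as a block (-0.49, adjusted p = 0.0562). It was lost as well on leaving out activated replicate 1, 3 or 4 (adjusted p = 0.0577, 0.0649 and 0.0639) or resting replicate 2 or 4 (0.0691 and 0.0575). Within slides 1 and 4 the difference was -0.81 and -0.71 for Egr1, 0.56 and 1.01 for Egr2, and -0.52 and -0.15 for Egr3. Nab1 and Nab2 differed by 0.22 ± 0.11 (SE) and -0.11 ± 0.10 (SE) and did not pass the test.

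At 16 h in IgG-treated cells Egr1 and Egr3 were lower with antigen and the other 3 genes did not pass the test, where 7.02% of genes were called lower. The Egr3 Cy3 level was 8.27, 8.43, 8.67 and 8.80 in resting cells and 7.54, 7.60, 7.92 and 7.88 in activated cells. The groups did not overlap, and Egr3 was 1.75-fold lower, a difference of -0.81 ± 0.12 (SE, adjusted p = 0.000353). Egr1 was at 13.75 to 13.83 in resting cells and at 13.08, 13.30 and 13.19 in activated cells, 1.51-fold lower (adjusted p = 0.0276). That Egr1 call was lost without the 3 arrays that stand apart (adjusted p = 0.0651), with slide as a block (-0.49, adjusted p = 0.0546), and on leaving out activated replicate 1 or 4 (adjusted p = 0.103 and 0.0722) or resting replicate 2, 3 or 4 (0.0565, 0.0634 and 0.0584).

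Egr2 in IgG-treated cells differed by 0.35 ± 0.20 (SE) between activated and resting cells at 16 h and did not pass the test (adjusted p = 0.32). With the replicate number as a block it did (adjusted p = 0.011). The Nab2 and Nab1 differences were -0.21 ± 0.08 (SE) and -0.03 ± 0.08 (SE), with adjusted p of 0.106 and 0.854, but Nab2 passed with median centring (0.0407), with only these groups fitted (0.0474) and with slide as a block (0.0411). In anti-TIM-3-treated cells Egr2 rose with antigen by 1.03 ± 0.16 (SE), 2.04-fold (adjusted p = 0.000288), where 9.47% of genes were called higher. Egr1 and Egr3 differed there by -1.39 ± 0.14 (SE) and -1.29 ± 0.15 (SE), 2.63-fold and 2.44-fold lower (adjusted p = 7.41e-06 and 1.87e-05), where 9.79% were called lower. From Agilent's processed signals the Egr3 difference was -1.95. Nab1 and Nab2 differed by 0.19 and -0.32 and did not pass (adjusted p = 0.0929 and 0.115), but Nab1 did without activated replicate 1 (adjusted p = 0.0197) and Nab2 without resting replicate 3 (adjusted p = 0.0414). Without the 3 arrays that stand apart Nab2 differed by -0.48 and passed (adjusted p = 0.0238). With median centring alone Nab1 differed by 0.26 and passed (adjusted p = 0.0275).

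The change of the antigen effect from 2 h to 16 h, tested in Cy3, was -3.53 ± 0.17 (SE) for Egr3, -2.17 ± 0.29 (SE) for Egr2, -2.09 ± 0.11 (SE) for Nab2 and -0.44 ± 0.11 (SE) for Nab1. All 4 passed (adjusted p = 4.36e-10, 2.32e-05, 1.87e-09 and 0.00485), where 12.7% of genes were called lower. For Egr1 the change was 0.50 ± 0.23 (SE) and did not pass (adjusted p = 0.105), although it did with the replicate number as a block (0.56, adjusted p = 0.0396) and without resting replicate 3 at 2 h (0.65, adjusted p = 0.019).

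**Figure D3:**
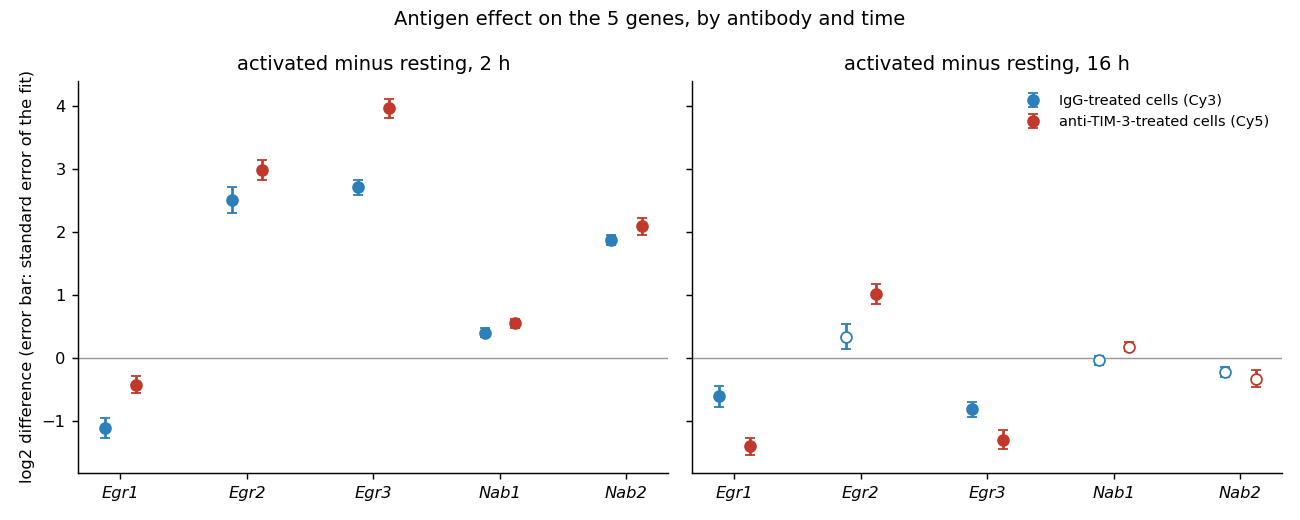
Difference in log2 level between activated and resting cells for each gene at 2 h and 16 h, in IgG-treated cells (Cy3, blue) and anti-TIM-3-treated cells (Cy5, red), with the SE of the fit as error bars. Filled circles have an adjusted p under 0.05 and open ones do not, and at 16 h the Egr2 difference is 1.03 in Cy5 and 0.35 in Cy3.

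Between 2 h and 16 h 4 of the 5 genes changed in resting cells of either antibody, though not the same 4. In resting IgG-treated cells Egr1 rose 2.27-fold from 12.61 to 13.79 (adjusted p = 1.22e-05) and Egr3 rose 2.06-fold from 7.50 to 8.54 (adjusted p = 2.48e-06), where 24.1% of genes were called higher. Nab2 was 1.82-fold and Nab1 1.2-fold lower (adjusted p = 2.08e-07 and 0.0107), where 22.8% were called lower. The Nab1 call was lost without the 3 arrays that stand apart (-0.18, adjusted p = 0.0846). Egr2 differed by 0.08 ± 0.20 (SE, adjusted p = 0.783).

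In activated IgG-treated cells Egr1 was 3.22-fold higher at 16 h than at 2 h, where 33.9% of genes were called higher. The other 4 genes were lower there, by 7.77-fold for Nab2, 5.6-fold for Egr3, 4.25-fold for Egr2 and 1.63-fold for Nab1, where 26.2% were called lower. In activated anti-TIM-3-treated cells Egr3 was 44.6-fold lower at 16 h, from 12.47 ± 0.15 to 6.99 ± 0.12 (n = 4 each, adjusted p = 3.66e-14). Its dimmer probe had a log2 difference of only -0.995 ± 0.05 (SE) there. Nab2 was 13.4-fold, Egr2 5.43-fold and Nab1 1.63-fold lower, where 26.1% were called lower, and Egr1 differed by -0.25 ± 0.14 (SE, adjusted p = 0.133). In resting anti-TIM-3-treated cells Egr1 rose 1.66-fold, where 23.3% of genes were called higher, and Nab2 (2.49-fold), Egr2 (1.4-fold) and Nab1 (1.27-fold) were lower, where 21.6% were called lower. The dimmer Nab1 probe differed there by 0.02 ± 0.08 (SE) and did not pass the test (adjusted p = 0.86). The Egr2 call was lost without the 3 arrays that stand apart (adjusted p = 0.0887) and on leaving out resting replicate 4 at 2 h, or replicate 2 or 3 at 16 h (adjusted p = 0.0757, 0.0717 and 0.0588). Egr3 differed by -0.22 ± 0.15 (SE, adjusted p = 0.262).

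The order of the 4 groups in Cy3 differed between the genes. Egr1 ran from resting 16 h (13.79) through activated 16 h (13.19) and resting 2 h (12.61) to activated 2 h (11.50), with no overlap between neighbours. Egr3 ran from activated 2 h (10.22) through resting 16 h (8.54) and activated 16 h (7.73) to resting 2 h (7.50), and the last 2 groups overlapped. For Egr2 the 3 groups below activated 2 h, at 11.22, 10.87 and 10.79, overlapped one another. Nab2 ran from activated 2 h (12.22) through resting 2 h (10.34) to resting 16 h (9.48), with activated 16 h (9.26) at the end and only just below. Nab1 had the same order with means from 13.32 to 12.62, and its 16 h groups overlapped.

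The second probes of Egr3 and Nab1 were tested beside the first. The dimmer Egr3 probe was well above background on all 4 activated arrays at 2 h in both channels, and elsewhere on at most 2 arrays of a group. There its anti-TIM-3 ratio was 0.54, 0.50, 0.39 and 0.50 against 2.07 to 2.60 on the brighter probe. Its mean of 0.48 ± 0.07 (n = 4, adjusted p = 2.63e-08) has the same direction at a smaller size, and the mean over both Egr3 probes was 1.37. With antigen at 2 h the dimmer Egr3 probe rose 1.38-fold in Cy3 and 1.91-fold in Cy5, against 6.57-fold and 15.7-fold on the brighter one. At 16 h it differed with antigen by 0.10 in Cy3 and -0.004 in Cy5 and did not pass the test. The 2 Nab1 probes went apart at 16 h. In resting cells the dimmer one had ratios of 0.29, 0.16, 0.53 and 0.18 (mean 0.29 ± 0.17, n = 4, adjusted p = 0.0169) where the brighter one averaged -0.11. In activated cells it averaged 0.24 ± 0.15 (n = 4, adjusted p = 0.0313) against 0.11 on the brighter one. With antigen in Cy3 at 2 h both Nab1 probes rose, by 0.65 ± 0.07 (SE) on the dimmer and 0.41 ± 0.08 (SE) on the brighter. So an anti-TIM-3 effect on Nab1 at 16 h depended on the probe, whereas its antigen effect at 2 h had 1 direction on both.

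**Figure D4:**
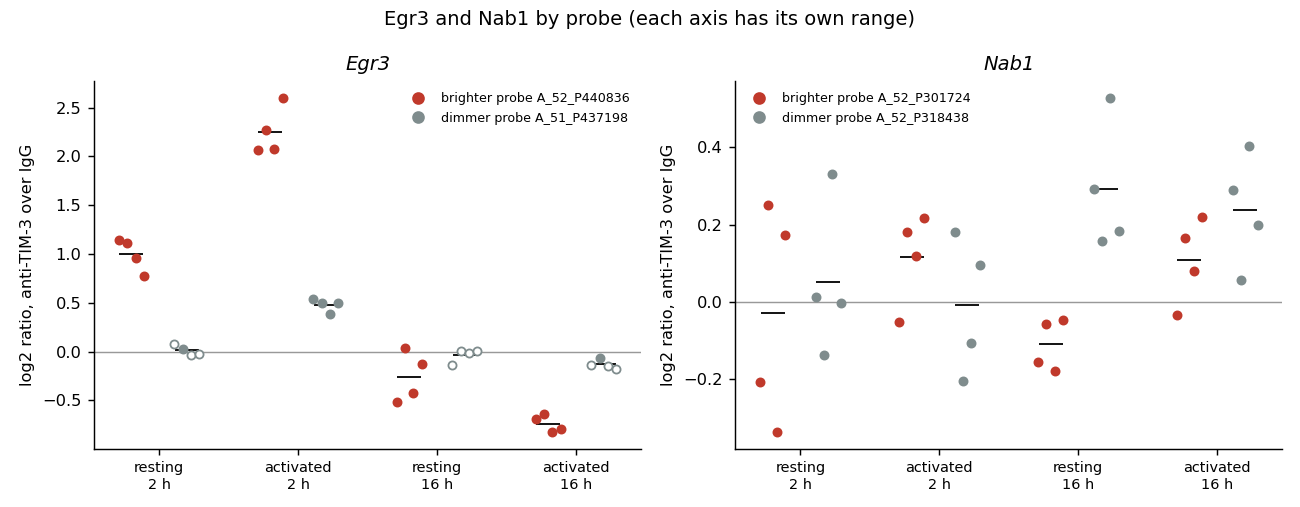
Anti-TIM-3 over IgG ratio (log2) by array for the brighter (red) and dimmer (grey) probe of Egr3 and of Nab1, with bars at the means and each panel on its own vertical range. Open circles mark arrays on which a probe was not well above background in both channels, and in resting cells at 16 h the Nab1 means are -0.11 and 0.29.

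Egr4, the remaining family member, was measured by 1 dim probe. In Cy3 at 2 h it was higher with antigen by 0.84 ± 0.11 (SE, adjusted p = 1.09e-05), and anti-TIM-3 raised it by a further 0.26 ± 0.09 (SE, adjusted p = 0.033) in activated cells, although 1 array of 4 was at -0.28. It was well above background on 0 activated arrays at 16 h.

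Genes known to act upstream of the Egr genes were counted by list. Of 16 measured genes of the ERK cascade and of the serum response factors, 4 rose and 6 fell with anti-TIM-3 in activated cells at 2 h, with a median ratio of -0.04 against 0.00122 over all genes, where 17.1% of all genes were called higher and 16.3% lower. Rps6ka3, which encodes an ERK-activated kinase, rose by 0.35 ± 0.06 (SE), Srf, which encodes the factor of the CArG box, rose by 0.29 ± 0.05 (SE), and Mrtfa, a coactivator of that factor, was at -0.29 ± 0.06 (SE). Their adjusted p were 0.000411, 0.000144 and 0.000772. With antigen in Cy3 at 2 h the Srf difference was -0.41 ± 0.06 (SE). At 16 h in activated cells 0 of the 16 rose and 3 fell, where 16.9% of all genes were called higher and 13.2% lower.

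Of 9 genes of calcineurin and NFAT signalling, 3 rose and 1 fell with anti-TIM-3 in activated cells at 2 h (median 0.06), where 17.1% of all genes were called higher and 16.3% lower. Those that rose were Rcan1 (0.36 ± 0.06, SE), a calcineurin inhibitor that is itself an NFAT target, the calcium channel gene Orai1 (0.27 ± 0.05, SE) and the calcineurin subunit gene Ppp3cb (0.23 ± 0.05, SE). Orai1 was also higher with antigen in Cy3, 2.05-fold. At 16 h 1 rose and 1 fell. Of 12 genes of the NuRD complex, through which NAB proteins are known to repress, 1 rose and 1 fell at 2 h (median 0.04), Rbbp7 at 0.12 ± 0.04 (SE) and Mbd3 at -0.34 ± 0.05 (SE), and 2 rose and 1 fell at 16 h. The NuRD counts at 2 h are below those shares of all genes, and at 16 h the shares were 16.9% higher and 13.2% lower.

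Genes described elsewhere as Egr targets were counted in the same way. This list, like the others, was chosen with earlier results of these data known, so its counts are no independent test. In activated cells at 2 h 14 of 26 measured rose with anti-TIM-3 and 2 fell, with a median ratio of 0.24, where 17.1% of all genes were called higher and 16.3% lower. At 16 h 4 rose and 9 fell, with a median of -0.01 against 0.00916 over all genes, of which 16.9% were called higher and 13.2% lower. The largest rises at 2 h were those of Il2 (2.45 ± 0.04, SE, adjusted p = 2.67e-16), Tnf (2.44 ± 0.06, SE, adjusted p = 2.07e-14) and Il13 (1.51 ± 0.03, SE, adjusted p = 2.39e-15), genes of cytokines that activated mast cells make. At 16 h Tnf fell by 0.53 ± 0.06 (SE, adjusted p = 1.06e-05). In resting cells 3 rose and 1 fell at 2 h, where 7.07% of all genes were called higher and 6.92% lower. The 16 h counts there were 2 that rose and 3 that fell, where 11.7% were called higher and 9.95% lower. With antigen alone in Cy3 at 2 h 15 of the 26 rose and 5 fell, with a median of 0.55 against -0.04 over all genes, of which 15.3% were called higher and 27.6% lower.

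The genes with the most similar levels were sought over 32 channel values, the Cy3 and Cy5 levels of the 16 arrays, which share arrays, cultures and normalization. For Egr1 they were Cd69 (r = 0.92), Hk2 (0.91) and P4ha2 (0.86). For Egr2 they were Nfkbia, Sphk1 and Sema7a, at 0.98 to 0.99, and for Egr3 Nr4a1 (0.98), Fosl2 (0.96) and Kdm6b (0.96). For Nab2 they were Med14, Coa7 and Kctd15, all at 0.99, and for Nab1 Ttc19, Ube2g1 and Klhl25, all at 0.96. Among the 5 genes themselves r was between 0.80 and 0.93 for Egr2, Egr3, Nab1 and Nab2, and between -0.66 and -0.26 for Egr1 with each of the others.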

How the data were processed

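RNA of mouse mast cells was measured on 16 two-colour Agilent arrays. Scanner intensities of spots and local backgrounds were deposited as Agilent Feature Extraction wrote them (version 9.1.3.1, per the file headers). The authors' deposited log10 ratios, the same in scanner files and value table, rest on processed intensities that were background-subtracted and dye-normalized, per the file headers. Here intensities were corrected with normexp (offset 50), loess-normalized within arrays and, for single channels, Aquantile-normalized, with limma 3.58.1 in R 4.3.3. Control spots and outlier flags were left out, and a probe had to be well above background on 3 of 4 arrays of a group. limma was fitted over all arrays with 1 mean per group, two-sided, with Benjamini-Hochberg adjustment over all genes at 0.05. It was first tested on simulated data. Same-numbered replicates of different groups were alike in levels, by r of their deviations from group means. In Cy3 r was 0.11 to 0.68 (median 0.33, against -0.11 for other-numbered pairs). In Cy5 it was -0.03 to 0.63 (median 0.40, against -0.07). In ratios it was -0.45 to 0.64, with medians of 0.12 and -0.05, so pairing was unclear there. Named genes are the 5 members, 3 most similar genes for each, and up to 3 genes per list. Members and lists were chosen with earlier results of these data known. Array number limits the precision.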

Additional observations from a re-analysis of the deposited data

Results flagged for a closer look

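Among 81 groups of 4 values, 5 had an array far from the others of its group by Dixon's test, and chance flags about 1 in 20 groups. These were the Egr2 ratio of activated replicate 2 at 16 h (0.85), the ratio of the dimmer Egr3 probe in resting replicate 1 at 16 h (-0.14), the Cy3 level of the brighter Egr3 probe (10.04) and the Cy5 level of Egr2 (14.33) in activated replicate 4 at 2 h, and the Cy5 level of the dimmer Nab1 probe in activated replicate 3 at 2 h (11.05).

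Several effects differed between groups by limma's test of the difference. The anti-TIM-3 ratio of activated minus resting cells at 2 h was 0.69 for Egr1, 0.47 for Egr2 and 1.26 for Egr3. At 16 h it was -0.79 for Egr1, 0.68 for Egr2 and -0.48 for Egr3, so Egr2 had the opposite sign to Egr1 and Egr3. The ratio at 16 h minus that at 2 h was -1.94 for Egr1, -2.99 for Egr3 and -0.78 for Nab2 in activated cells, and -1.26 for Egr3 in resting cells. The antigen effect in IgG-treated cells at 16 h minus that at 2 h was -2.17 for Egr2, -3.53 for Egr3, -0.44 for Nab1 and -2.09 for Nab2.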

How the results depend on the processing

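Median centring alone turned 7 signs: to 0.45 for Nab1 in resting cells at 2 h, to 0.21 for Egr2, 0.029 for Egr3, 0.42 for Nab1 and 0.16 for Nab2 in resting cells at 16 h, and to 0.067 for Egr1 and 0.11 for Nab2 in activated cells at 16 h. The median gene then lay at 0.21, 0.30 and 0.39 in these groups. Of 5 genes, the number changed by anti-TIM-3 in resting cells at 2 h was 4, and 2 with only that group fitted, while median centring called Nab1 as well. In resting cells at 16 h it was 2, but 1 with Agilent's processed signals, 4 with median centring, 1 with no filter on dim probes, 1 with the mean of probes, 0 with only that group fitted, 1 with slide as a block and 0 without the 3 resting arrays that stand apart. For 16 h minus 2 h in resting cells it was 1, 2 with median centring and 4 with the replicate block. The antigen effect at 16 h called 2 genes in Cy3, 1 without those 3 arrays, and 3 in Cy5, 5 with the replicate block. Same-numbered replicates were alike in Cy3 and Cy5 levels, whereas in ratios their pairing was unclear. In ratios the block further called Egr2 for anti-TIM-3 in resting cells at 16 h (-0.23, adjusted p = 0.00811) and for 16 h minus 2 h in activated cells (-0.35, adjusted p = 0.00415). Beyond these and the blocked Cy3 values in the text, it changed no call. Leaving out 1 array gave 2 to 4 changed genes in resting cells at 2 h, 0 to 2 at 16 h, 1 to 3 for their difference, 3 to 4 for that of activated cells, 2 to 3 for activated minus resting cells at either time, 1 to 2 (Cy3) and 3 to 4 (Cy5) for antigen at 16 h, and 4 to 5 for antigen in Cy5 at 2 h. The anti-TIM-3 effect in activated cells called 4 genes at both times in every such fit. Median centring alone called Nab1 as well at both times, at 0.71 and 0.79. With it Egr1 and Nab2 did not pass at 16 h (adjusted p = 0.579 and 0.12). The mean of probes also called Nab1 at 16 h. The leave-out of the 3 arrays and the fit of every probe were chosen after seeing the data. The causes were not tested.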
